A study of Homo sapiens with 8 samples.

Results

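Midbrain dopaminergic transcription factors are the genes LMX1A, LMX1B, FOXA1, FOXA2, EN1, EN2, OTX2, NR4A2, PITX3 and MSX1. They were chosen by name from the deposited count table, and all 10 were found, each as 1 of the 58395 genes listed. The neurons were iCell DopaNeurons, a commercial line of human dopaminergic neurons made from induced pluripotent stem cells, so every library comes from 1 cell product. The 4 GDNF libraries came from neurons seeded on coverslips carrying a supramolecular coating built to act like GDNF, a survival factor for dopaminergic neurons. The 4 CT libraries are read here as the scrambled form of that nanostructure, the only comparator the series names, since the labels do not spell CT out and describe the coating of both groups in the same words. Both groups were sampled on day 4, carry the same treatment label of 10.73 mM, and had a single medium change on the day after seeding. The design text speaks of 3 biological replicates per condition, whereas 4 libraries per group are in the table, and no label ties a library to a culture, so the p-values speak for the spread of these libraries alone, which may in part be technical.

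The factors act in sequence as midbrain dopaminergic neurons form. In the ventral midbrain, OTX2 sets midbrain against hindbrain identity, FOXA2 and FOXA1 specify the floor plate, LMX1A, LMX1B and MSX1 turn floor plate progenitors towards the dopaminergic fate, and EN1 and EN2, NR4A2 and PITX3 maintain the neurons that leave the cell cycle. This order is known mainly from mouse. LMX1A and LMX1B are LIM-homeodomain proteins, EN1, EN2, OTX2, PITX3 and MSX1 are homeodomain proteins, FOXA1 and FOXA2 are forkhead proteins, and NR4A2 is an orphan nuclear receptor.

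Of the 10 factors, 6 form pairs of related genes, and the counts of a pair can be kept apart only where their letters differ. This is shown first for LMX1A and LMX1B, the pair whose ratio stood apart in 1 library, by the 180 bases that encode the homeodomain, the part of the protein that contacts DNA. They lie in 3 exons each, at chr1:165208118-165213727 on the minus strand for LMX1A and at chr9:126693237-126693760 on the plus strand for LMX1B (GRCh38, GENCODE transcripts). Capitals mark the bases that differ within the pair.
LMX1A: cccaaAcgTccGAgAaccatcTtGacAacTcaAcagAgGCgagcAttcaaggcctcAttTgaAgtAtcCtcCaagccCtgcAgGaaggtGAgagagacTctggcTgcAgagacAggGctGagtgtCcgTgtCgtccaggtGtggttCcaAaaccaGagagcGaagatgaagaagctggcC
LMX1B: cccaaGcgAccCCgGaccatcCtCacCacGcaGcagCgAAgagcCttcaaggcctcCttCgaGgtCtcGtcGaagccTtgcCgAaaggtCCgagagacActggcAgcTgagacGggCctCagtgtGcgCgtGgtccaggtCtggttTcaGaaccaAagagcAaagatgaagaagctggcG
The homeoboxes differed at 40 of 180 bases, in 36 of 60 codons, and none of these differences changed the encoded amino acid. The longest run of identical bases was 17, so a longer read lying within this stretch meets at least 1 base that tells the genes apart.

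Over whole transcripts, no run of 50 bases of FOXA1, EN1, EN2, OTX2, NR4A2, PITX3 or MSX1 occurred in a transcript of another gene. LMX1A shared 84 of 4176 such runs with its antisense gene AL390730.1, LMX1B 51 of 5866 with 88 scattered genes, and FOXA2 22 of 2552 with AL121722.1, which had 0 counts in every library. OTX2 has 1 annotated pseudogene named after it and the other factors have none.

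The libraries held 28698283 to 34559240 counts. Levels are given in CPM, the count of a gene relative to its library's total after TMM scaling. A gene with no count in a library could still have a level of up to 0.0856 to 0.104 CPM there (3 counts, counting error only). All 10 factors passed the low-count filter, which kept 19999 genes. The deviation of CT replicate 2 from the other libraries followed the GC content of transcripts most closely (Spearman correlation 0.893 across 11814 genes of at least 5 CPM, a description, since genes share the library). GDNF replicate 4 came next (0.817). The trend was not confined to them. It was positive in CT replicate 3 (0.408) and GDNF replicate 3 (0.458). It was negative in CT replicates 1 (-0.654) and 4 (-0.761) and GDNF replicates 1 (-0.66) and 2 (-0.568). Results that rest on CT replicate 2 are therefore given with and without it. The labelled cell type was checked on markers. DDC, aromatic amino acid decarboxylase, had a mean of 336 ± 23.4 CPM in CT against 335 ± 20.01 in GDNF (SD, n = 4). TH, tyrosine hydroxylase, had 220.1 ± 74.8 CPM in CT against 219.5 ± 40.3 in GDNF. The dopamine transporter SLC6A3 ranged over 0.158 to 1.05 CPM and ALDH1A1, a marker of ventral nigral neurons, over 0 to 0.336 CPM. These 2 markers were low, ALDH1A1 close to the limit. The rest of the dopaminergic marker list was higher, with SLC18A2 at 14.2 to 22.1, KCNJ6 at 38.2 to 60.6 and CALB1 at 48.1 to 104.6 CPM. Mature or ventral markers as a whole were therefore not uniformly low. The neuronal marker MAP2 had 2890 ± 478 CPM in CT against 3064 ± 255 in GDNF. Of the dopaminergic markers 6 of 7 passed the filter, with 4 log2 fold changes above and 2 below 0. Serotonergic and noradrenergic markers, of which 3 of 9 passed and all 3 were below 0, summed to between 1.51 and 2.46 CPM in CT and between 1.14 and 1.94 in GDNF.

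Per kb of annotated exon, the factors spanned a 492-fold range of level, and their order was the same in all 8 libraries. LMX1B stood highest at 139 ± 26.4 CPM per kb (SD over 8 libraries), above 99.1% of the 14225 protein-coding genes tested. FOXA1 followed at 92.6 ± 4.91 and LMX1A at 77.9 ± 4.51 CPM per kb. FOXA1 lay above LMX1A in 8 of 8 libraries, although the lowest FOXA1 value (85.2) was below the highest LMX1A value (86.2), the only neighbours in the order whose ranges overlapped. EN1 stood at 60.9 ± 7.38, FOXA2 at 42.6 ± 5.36 and NR4A2 at 30.5 ± 2.91 CPM per kb, all above 91.2% or more of protein-coding genes. OTX2, at 10.3 ± 0.973 CPM per kb, lay 2.96-fold below NR4A2 and above 71.02% of protein-coding genes. EN2 (3.62 ± 0.461), PITX3 (1.71 ± 0.557) and MSX1 (0.283 ± 0.0996 CPM per kb) were above 44.7%, 30.01% and 10.2% of them. With the longest transcript as length the order was the same for 10 of 10. In bulk libraries, fewer cells expressing a factor and less RNA per cell cannot be told apart.

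**Figure D1:**
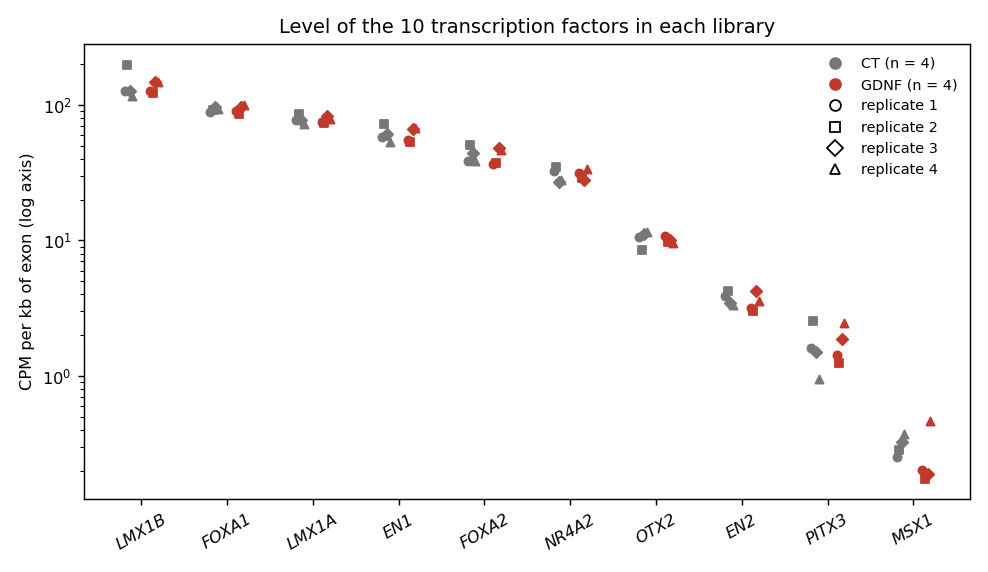
Level of each factor as CPM per kb of exon (log axis) in the 4 CT libraries (grey) and the 4 GDNF libraries (red), with replicates marked by symbol. The factors run from LMX1B at 139 to MSX1 at 0.283 CPM per kb, and the groups overlap for every factor.

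Added together, the 10 factors reached 418 to 549 CPM per kb in CT and 414 to 490 CPM per kb in GDNF. LMX1B made up 27.95 to 36.04% of that sum in CT and 29.3 to 30.5% in GDNF, and its highest share was in CT replicate 2. FOXA1 made up 16.7 to 22.2% and 19.95 to 20.99%, and its lowest share was in the same library. LMX1A, FOXA1, LMX1B, EN1 and FOXA2 were thus each a larger part of the sum than NR4A2, whose share was 5.75 to 7.38% over the 8 libraries.

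Comparing the coatings, which asks whether the GDNF mimic alters the level of a gene, none of the 10 factors passed the test (edgeR quasi-likelihood test, Benjamini-Hochberg over all 19999 genes, adjusted p = 0.9999 for each). Over all genes the same rule called 0%, so the count of 0 among the factors sets them apart in no way. In edgeR 0 of the 10 had an unadjusted p under 0.05, beside 176 of all genes (0.88%), and DESeq2 also called 0 of them. If no gene differed, a well-calibrated test would put a share of about 0.05 of genes there. Small p-values were thus fewer than that in this fit, and other settings gave 80 to 1024 such genes. Log2 fold changes of GDNF over CT were above 0 for 2 factors and below 0 for 8, with a median of -0.0315, beside a median of -0.0098 over all genes (9521 above and 10478 below 0). For no factor were the libraries of the groups separate, which was the case for 0.406% of genes of at least 5 CPM and 0.93% of all genes tested. The 95% confidence interval lay within 1.5-fold either way for all 8 factors of at least 5 CPM, and for 79.3% of the 11820 genes of that level. Of the 2 factors below 5 CPM, the interval of PITX3 lay within 2-fold and that of MSX1 reached beyond.

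**Figure D2:**
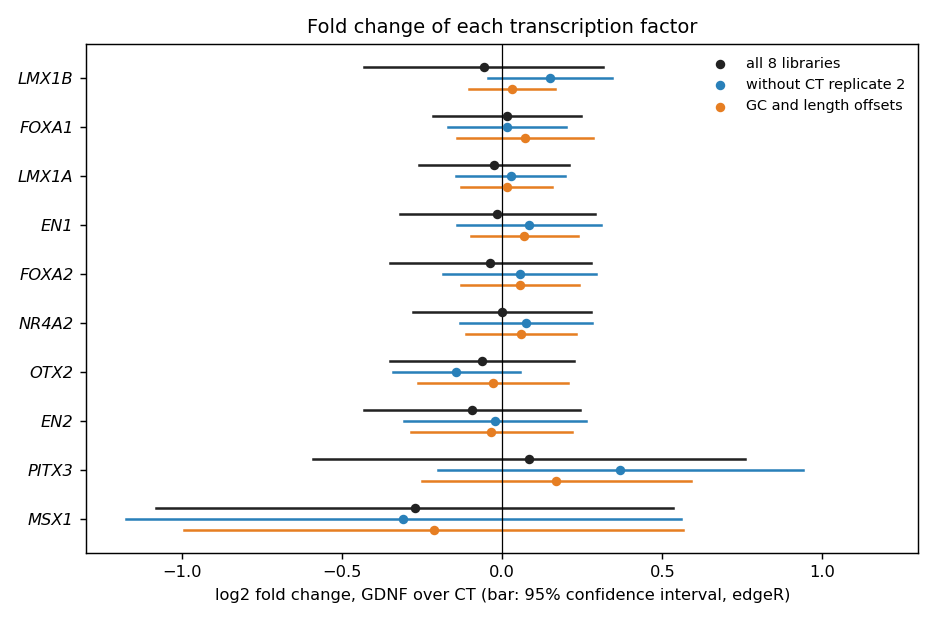
Log2 fold change of GDNF over CT for each factor with its 95% confidence interval in edgeR, from all 8 libraries (black), without CT replicate 2 (blue) and with offsets for GC content and length (orange). All intervals include 0, and those of PITX3 and MSX1, with the fewest counts, are the widest.

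The LIM-homeodomain pair held the factor of highest level, LMX1B. LMX1B had 736, 1154, 741.5 and 681 CPM in CT replicates 1 to 4 and 735, 717, 864 and 864.5 CPM in GDNF replicates 1 to 4. CT replicate 2 lay above all other libraries, and the 4 GDNF values all fell within the CT range. Its log2 fold change was -0.0585 (95% confidence interval -0.43 to 0.32), and 0.15 (-0.044 to 0.34) without CT replicate 2. LMX1A had 325, 360.5, 325.5 and 305 CPM in CT and 315, 306, 344 and 328 CPM in GDNF. Its values were close in all 8 libraries, with a coefficient of variation of 5.79%, at percentile 9.64 among 1183 genes within 2-fold of its mean. Its log2 fold change was -0.026 (-0.26 to 0.21), or 0.0265 without CT replicate 2. Of the exonic bases of LMX1A, 4.18% lie opposite an exon on the other strand. Its antisense genes AL390730.1 and AL390730.2 had 1.49 to 3.03 and 1.32 to 2.2 CPM.

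The forkhead factors FOXA1 and FOXA2 open chromatin at their targets and act upstream of the dopaminergic programme. FOXA1 had 350.1, 364, 385.5 and 368.5 CPM in CT and 360.2, 339, 386 and 397 CPM in GDNF. The GDNF values ran from below the lowest to above the highest CT value, and the log2 fold change was 0.014 (-0.22 to 0.24). FOXA2 had 101, 132, 115 and 101 CPM in CT and 95.6, 97.0, 124 and 121 CPM in GDNF. In each group 2 libraries lay above 110.8 CPM, its mean over all 8, and 2 below. Those above were CT replicates 2 and 3 and GDNF replicates 3 and 4, the libraries with a positive GC correlation. The part of GC content in this split was not tested. The log2 fold change was -0.037 (-0.35 to 0.28), or 0.0545 without CT replicate 2. Beside FOXA2 lies LINC00261, a long noncoding RNA, at 1.29 ± 0.228 CPM (CT) against 1.37 ± 0.33 (GDNF), and on the other strand of FOXA1 lies TTC6, at 28.4 ± 7.64 against 27.55 ± 5.27 CPM, which overlaps 0.402% of the exonic bases of FOXA1. FOXA2 shares 2.69% of its exonic bases with AL121722.1 on the same strand.

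EN1 and EN2, the engrailed genes, keep midbrain dopaminergic neurons alive in mouse. EN1 had 167, 209.6, 177 and 153 CPM in CT and 159.6, 152, 192 and 195 CPM in GDNF. CT replicate 2 was again the highest library, and the log2 fold change was -0.0155 (-0.32 to 0.29), or 0.083 without that library. EN2 had 13.2, 14.4, 11.7 and 11.4 CPM in CT and 10.8, 10.2, 14.3 and 12.2 CPM in GDNF. The lowest pair of EN2 values came from GDNF and the highest value from CT, with overlap between them, and the log2 fold change was -0.0945 (-0.43 to 0.24), or -0.023 (-0.31 to 0.26) without CT replicate 2.

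OTX2 was the factor for which CT replicate 2 was the lowest library. It had 34.95, 28.05, 36.6 and 37.8 CPM in CT and 35.3, 31.8, 33.1 and 31.3 CPM in GDNF. All GDNF values lay inside the CT range, and the log2 fold change was -0.063 (-0.35 to 0.23), or -0.14 (-0.34 to 0.055) without CT replicate 2. Its neighbour OTX2-AS1, which starts 2704 bases away on the other strand, had 0.739 to 1.37 CPM over the 8 libraries.

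NR4A2, which activates TH and other genes of dopamine handling, had 128, 138, 107 and 110.4 CPM in CT and 125, 114, 111 and 133 CPM in GDNF. The groups covered nearly the same range, and the log2 fold change was -0.0019 (-0.28 to 0.28), or 0.073 without CT replicate 2. NR4A2 is also an immediate early gene, and its relatives NR4A1 and NR4A3 had means of 31.1 ± 9.17 and 14.3 ± 2.85 CPM in CT, against 30.2 ± 6.11 and 16.6 ± 1.11 in GDNF, none of them past the threshold. PITX3, which works with NR4A2 in mature neurons, had 2.25, 3.53, 2.11 and 1.32 CPM in CT and 2.0, 1.74, 2.62 and 3.41 CPM in GDNF, from 42 to 106 counts per library. CT replicate 2 and GDNF replicate 4 were the highest libraries. The log2 fold change was 0.083 (-0.59 to 0.76), and 0.37 (-0.20 to 0.94) when CT replicate 2 was left out. It was -0.11 with CT replicate 4 left out, and -0.12 with GDNF replicate 4 left out.

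MSX1, a factor of dividing progenitors that represses other fates, was near the detection limit with 12 to 29 counts per library. It had 0.538, 0.599, 0.6915 and 0.788 CPM in CT and 0.428, 0.372, 0.403 and 0.98 CPM in GDNF. GDNF replicates 1 to 3 lay below every CT library and GDNF replicate 4 above every CT library, so that no GDNF value fell within the CT range. The log2 fold change was -0.27 (-1.08 to 0.53), and -0.70 (-1.44 to 0.034, unadjusted p = 0.0597 in edgeR) without GDNF replicate 4. It was smaller in size, at -0.12, -0.16, -0.17 and -0.17, without GDNF replicate 2, GDNF replicate 3, GDNF replicate 1 and CT replicate 4 in turn. Counting error alone gives a coefficient of variation of 23.2% at its mean count, beside 35.2% measured over the 8 libraries.

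Within each pair, the ratio of read counts in a library needs no scaling between libraries, and it was compared between the coatings by a two-sided exact permutation test, adjusted over the 3 pairs. The test of 4 against 4 libraries allows no p below 0.0286. The log2 ratio of LMX1B to LMX1A was 1.18, 1.68, 1.19 and 1.16 in CT replicates 1 to 4 and 1.22, 1.23, 1.33 and 1.3996 in GDNF replicates 1 to 4. CT replicate 2 had the highest ratio and the other 3 CT libraries the lowest 3. The group means were 1.3015 ± 0.25 and 1.2953 ± 0.085 (n = 4), and the exact permutation test gave p = 1 (adjusted p = 1). Without CT replicate 2 the difference, GDNF minus CT, was 0.12 with every GDNF library above every remaining CT library (exact permutation p = 0.0857, where 3 against 4 libraries allow none below 0.0286). With the GC and length offsets on all 8 libraries the difference was 0.018 (exact permutation p = 0.714).

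The log2 ratio of FOXA2 to FOXA1 was -1.72 ± 0.18 in CT and -1.77 ± 0.12 in GDNF, a difference of -0.051 (n = 4, exact permutation p = 0.657, adjusted p = 0.986), or 0.034 without CT replicate 2. The log2 ratio of EN2 to EN1 was -3.79 ± 0.11 and -3.88 ± 0.10, a difference of -0.085 (n = 4, exact permutation p = 0.286, adjusted p = 0.857). It was -0.041 without CT replicate 1, -0.047 without GDNF replicate 4 and -0.13 without GDNF replicate 3. Neither difference was larger than the spread between replicates. Per kb of exon, LMX1B stood at 1.61 to 2.30 times LMX1A, FOXA2 at 0.406 to 0.555 times FOXA1 and EN2 at 0.0532 to 0.067 times EN1 over the 8 libraries.

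**Figure D3:**
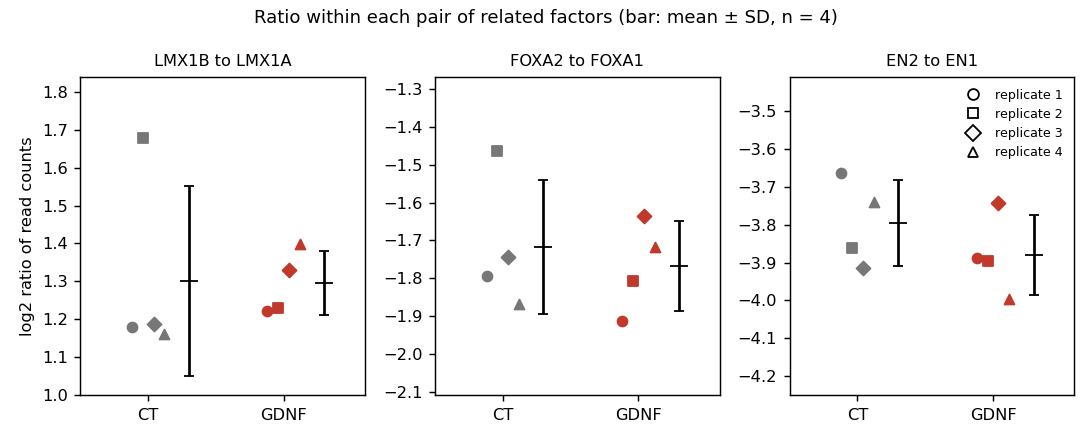
Log2 ratio of read counts within each pair of related factors by library (CT grey, GDNF red, replicates by symbol), with the mean and SD of each group of 4 beside the points. CT replicate 2 has the highest LMX1B to LMX1A ratio at 1.68, while the other CT libraries lie at 1.16 to 1.19.

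GC content moved with these values. CT replicate 2 was the highest of the 8 libraries for 7 of the 10 factors. The share of all genes for which it was highest was not counted, so this count is not read as a trait of the factors. The deviation of CT replicate 2 from the median of the other 7 libraries was taken on log2(CPM + 0.5), which shrinks it for genes of few CPM. This deviation was 0.65 for LMX1B, whose transcripts average 62.05% GC, and 0.63 for PITX3, at 69.4%. For LMX1A, which encodes the same homeodomain in transcripts of 52.1% GC, it was 0.15. Genes within 1 percentage point of these GC contents deviated by a median of 0.62 (610 genes, LMX1B), 0.58 (33 genes, PITX3) and 0.23 (831 genes, LMX1A). For OTX2, at 51.2% GC, the deviation was -0.31 beside 0.16 in genes of like GC, and for FOXA1, at 57.1%, it was -0.018 beside 0.51. In all, 6 of the 10 factors lay between the quartiles of genes of like GC content, and 5 with the GC content of the longest transcript. By definition as many genes lie between their quartiles as outside them, so these counts do not set the factors apart. The place of PITX3 between its quartiles may depend on the added 0.5, as the genes compared have at least 5 CPM. By the longest transcript OTX2 has 42.8% GC (like genes -0.54) and FOXA1 51.3% (0.25). In GDNF replicate 4 the deviations on the same scale were 0.23 for LMX1B, 0.58 for PITX3, 0.51 for MSX1 and -0.16 for OTX2. For MSX1 the added 0.5 is close to its mean of 0.6 CPM, so its deviation is not comparable in size with that of LMX1B. The part of GC content in any single library's value was not tested.

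**Figure D4:**
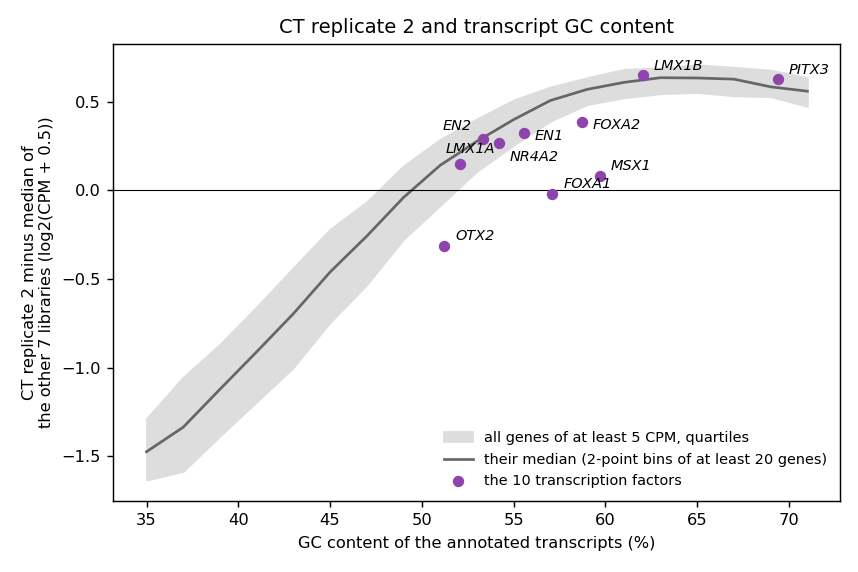
Deviation of CT replicate 2 from the median of the other 7 libraries, as log2(CPM + 0.5), against the mean GC content of a gene's annotated transcripts in percent. Purple points are the 10 factors, and the line and band are the median and quartiles of all genes of at least 5 CPM. LMX1B and PITX3 lie inside the band at 0.65 and 0.63, and OTX2, FOXA1, MSX1 and FOXA2 lie below the band. PITX3 and MSX1 average below 5 CPM, so the added 0.5 shrinks their deviations more than those of the genes in the band.

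Promoters from RefSeq (GRCh38.p14, 250 bases before to 50 after a start) were at hand for 7 of the 10 factors, with 9 starts in all. Those of OTX2 had 49.7% and 50.3% GC, and the 7 starts of the other factors 66.7 to 78%, beside a median of 58.7% over 35116 promoters. Both strands were searched for the forkhead motif TGTTTAC or TGTTTGC, the NR4A motif AAAGGTCA, the homeodomain motif TAATTA and the bicoid-type motif TAATCC, which OTX and PITX proteins are known to bind. These occurred in 7.17%, 1.22%, 4.84% and 6.36% of all promoters. Among the 9 starts, 1 held a match, the FOXA1 promoter at chr14:37595200-37595499 on the minus strand. It is shown because the match is to the motif of its own protein family, with the match in capitals, read on the opposite strand.
FOXA1 promoter: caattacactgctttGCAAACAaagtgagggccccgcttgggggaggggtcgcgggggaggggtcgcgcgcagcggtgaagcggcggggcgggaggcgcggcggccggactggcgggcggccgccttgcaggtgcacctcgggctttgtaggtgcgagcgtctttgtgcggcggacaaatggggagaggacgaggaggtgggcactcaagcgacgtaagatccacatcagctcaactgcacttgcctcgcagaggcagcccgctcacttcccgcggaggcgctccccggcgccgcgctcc
A match describes the letters only and is not evidence of binding.

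The genes whose level followed each factor most closely were sought among 11819 others of at least 5 CPM, as the smallest SD of the log2 ratio to the factor over the 8 libraries. For LMX1B it was TTBK1 (SD 0.018), for LMX1A SEC14L1 (0.022), for FOXA1 ZC4H2 (0.026), for FOXA2 C11orf95 (0.03) and for EN1 VCP (0.021). For NR4A2 it was ZSCAN20 (0.047), for OTX2 CUL1 (0.035) and for EN2 FAM174A (0.057). Without CT replicate 2 another gene ranked first for each of the 8 factors, so the first rank was not stable. No other library was left out here, so the change cannot be tied to CT replicate 2 in particular. Among the factors themselves, EN1 and FOXA2 were closest to each other over the 8 libraries, with an SD of 0.052. Without CT replicate 2 their SD was 0.056, and that of EN1 and LMX1B, 0.12 over all 8, was lower at 0.0521. FOXA2 ranked 35th among all genes as seen from EN1, and EN1 21st as seen from FOXA2. These values share libraries, depth and GC content, and are descriptions.

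Other genes of the pathway were taken from lists, of which none held a gene past the threshold. Of 19 partners and co-regulators all were measured, 7 above and 12 below 0, with a median log2 fold change of -0.037. LMO4, a LIM-only protein, had 402 ± 45.9 CPM in CT against 403 ± 12.5 in GDNF. Of 21 genes reported as targets of the factors, mostly in mouse, 19 were measured, 9 above and 10 below 0, with a median of -0.0018. DDC and the semaphorin receptor PLXNC1 were the most abundant, PLXNC1 at 299 ± 61.6 and 318 ± 16.5 CPM. Without CT replicate 2 the medians of these lists were 0.02 and 0.041.

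Of 18 proneural and neuronal determinants 16 were measured, 7 above and 9 below 0, with a median of -0.034. EBF3 averaged 215 ± 13.3 and 219.7 ± 12.1 CPM, and NR2F2, a nuclear receptor, 161 ± 9.87 and 162 ± 7.12 CPM. Of 19 floor plate and patterning genes 10 were measured, 4 above and 6 below 0, with a median of -0.022. The homeobox gene NKX6-1 averaged 201 ± 27.8 and 191 ± 22.7 CPM. Of 14 relatives from the families of the factors 5 passed the filter, 2 above and 3 below 0 with a median of -0.04 (0.13 without CT replicate 2), and NR4A1, described above, had the highest mean CPM among them. OTX1 and LHX1 also passed, OTX1 at 15.7 ± 2.78 CPM in CT and 14.5 ± 1.64 in GDNF, and LHX1 at 1.46 ± 0.25 and 1.47 ± 0.30. Among the relatives that did not pass, PITX1, LHX2, CRX and ISL2 had 2, 2, 7 and 2 counts in all 8 libraries together and MSX2 had 0. These names were chosen after their values were seen. Of 11 subthalamic and diencephalic regulators 4 were measured, 1 above and 3 below 0, with FOXP2 at 132 ± 33.3 and 131.5 ± 13.3 CPM.

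No marker of another cell type passed the threshold. Progenitor and cycling markers summed to 183.5 to 249 CPM in CT and 177 to 244.5 CPM in GDNF, mostly from NES, the intermediate filament nestin, at 193 ± 29.5 and 183 ± 32.0 CPM, and 2 of the 5 measured were above and 3 below 0. SOX2, a progenitor factor, stood at 7.555 ± 0.535 and 6.28 ± 0.346 CPM, with every GDNF library below every CT library (unadjusted p = 0.0698 and adjusted p = 0.9999 in edgeR). TOP2A, a gene of dividing cells named after its values were seen, stood at 0.967 ± 0.546 and 1.75 ± 0.42 CPM (unadjusted p = 0.041 and adjusted p = 0.9999 in edgeR). It had only 14 to 73 counts per library. MKI67, also a gene of dividing cells, stood at 1.05 ± 0.25 and 1.19 ± 0.241 CPM (unadjusted p = 0.518 in edgeR). Astrocyte and oligodendrocyte markers summed to 51.6 to 56.2 and 49.8 to 56.8 CPM, mostly from MBP, with 2 of 6 above and 4 below 0. Pluripotency markers summed to 8.70 to 9.98 and 7.53 to 8.38 CPM, where SOX2 is the main part and LIN28A adds 1.82 ± 0.367 and 1.59 ± 0.314 CPM. Fibroblast, choroid and endothelial markers summed to 38.6 to 58.6 and 47.7 to 61.3 CPM, with COL1A1 at 25.5 ± 8.69 and 26.6 ± 5.003 CPM. Of 6 GABAergic and glutamatergic markers 5 passed the filter, 4 above and 1 below 0. SLC17A6, which loads glutamate into vesicles, had 111 ± 21.98 and 114 ± 12.9 CPM and SLC32A1, which loads GABA, 12.9 ± 2.88 and 12.3 ± 1.64 CPM. Their part in the level of the factors was not tested.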

How the data were processed

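The values the authors deposited are raw counts of reads for each Ensembl gene and library. The submitters' processing notes name the build GRCh38 and the tools STAR, HTSeq, cutadapt, FastQC and DESeq2, with no versions. Whether counting used strand, and how multiply mapped reads were handled, is not given in the sources, so overlapping and antisense genes remain uncertain, also for list genes. Per the labels, RNA was polyA-selected with a TruSeq kit.

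Counts were filtered with filterByExpr (minimum count 10, total 15), scaled by TMM and fitted with edgeR 4.0.16 in R 4.3.3 (quasi-likelihood, robust, group only, false discovery rate 0.05). The code was tested on simulated data. Alternatives used DESeq2 1.42.0, limma 3.58.1, other scalings and filters, a replicate block, offsets smooth in GC content and length, and 1 library left out at a time. Of 58395 genes, 58275 were found in GENCODE 29, 98.7% with identical start and end, which gave length, GC content and exon overlap. Replicates differed by more than sampling noise (chi-square per degree of freedom at least 2.61). The factors are always named. From other lists the 2 genes of highest mean were named, except where a gene is not reported here, and for each factor of at least 5 CPM the closest gene. SLC6A3, ALDH1A1, SLC18A2, KCNJ6, CALB1, NR4A3, TOP2A, MKI67, OTX1, LHX1, PITX1, LHX2, CRX, ISL2 and MSX2 were added after their values were seen. The members and lists were chosen with earlier results of these data known.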

Additional observations from a re-analysis of the deposited data

Results flagged for a closer look

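Among 26 groups of 4 values (each factor's CPM and each pair's ratio in CT and in GDNF), 3 held a library far from the other 3. Chance gives about 1 in 20 for independent groups. The 26 groups share libraries and genes, and both LMX1B results below rest on the same count, so the 3 cannot be weighed against that rate. LMX1B stood at 1154 CPM in CT replicate 2, while CT replicates 1, 3 and 4 lay between 681 and 741.5 CPM. The log2 ratio of LMX1B to LMX1A was 1.68 in CT replicate 2, against 1.16 to 1.19. MSX1 stood at 0.98 CPM in GDNF replicate 4, from 29 counts, against 0.372 to 0.428 CPM in the other GDNF libraries.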

How the results depend on the processing

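Under 18 alternatives (17 for MSX1, which the CPM filter removed) no factor passed the threshold, and 0 genes passed over the whole table, with 80 to 1024 genes at an unadjusted p under 0.05. For EN2, OTX2 and MSX1 the direction was below 0 in all of them. The other fold changes, all close to 0, changed sign under some settings. With the GC and length offsets, log2 fold changes were 0.013 for LMX1A, 0.0305 for LMX1B, 0.055 for FOXA2, 0.068 for EN1 and 0.057 for NR4A2, and with the replicate block added 0.012, 0.0303, 0.0535, 0.065 and 0.059. In limma-voom they were 0.0625 for LMX1B, -0.0185 for FOXA1 and 0.032 for NR4A2. EN2, OTX2 and MSX1 kept their sign in limma-voom at -0.15, -0.11 and -0.58, beside -0.0945, -0.063 and -0.27 in the main fit. With upper-quartile scaling FOXA1 stood at -0.0068. NR4A2 stood at 0.002 with DESeq2 size factors and in DESeq2, 0.0096 with total counts, 0.0105 with no filter and 0.002 with the replicate block. Leaving out 1 library at a time gave LMX1A -0.0605 to 0.0265, LMX1B -0.14 to 0.15, FOXA1 -0.017 to 0.054, FOXA2 -0.10 to 0.0545, EN1 -0.079 to 0.083, NR4A2 -0.055 to 0.073, PITX3 -0.12 to 0.37, EN2 -0.20 to -0.023, OTX2 -0.14 to -0.014 and MSX1 -0.70 to -0.12. The difference in the log2 ratio of LMX1B to LMX1A was -0.053 to 0.12 with 1 library left out and 0.018 with the offsets, that of FOXA2 to FOXA1 was -0.10 to 0.034, and that of EN2 to EN1 -0.13 to -0.041. The cause of these sign changes was not tested.

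The deviations of same-numbered CT and GDNF libraries correlated positively for numbers 1 and 3 (0.712 and 0.323) and negatively for numbers 2 and 4 (-0.642 and -0.826). The GC trends of the libraries had the same sign within numbers 1 and 3 and opposite signs within numbers 2 and 4. The correlations therefore cannot show whether same-numbered libraries share a culture or day. For the same reason no conclusion is drawn from the 3 of 8 libraries that correlated best with their own number. The numbers are not taken as pairs because no label states a pairing. With the replicate block 0 genes passed (112 at an unadjusted p under 0.05, beside 176), and the exact sign-flip p of the 3 ratios, over replicate pairs, was 1, 0.75 and 0.375. Of the list medians under other settings 155 moved by less than the spread between replicates and 13 by more. Depth limits MSX1 and PITX3 most. The longest transcript as source of length and GC content, and limma-voom for the lists, were alternatives chosen after seeing the data.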
